A study of Mus musculus with 2 samples.

Results

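The TGF-beta receptors and Smads are described here from RNA-seq of 2 cultured stages of early mouse B cell development. The group was defined by name, without use of any measured value, as the ligand gene *Tgfb1*, the receptor genes *Tgfbr1* and *Tgfbr2*, and the Smad genes *Smad1* to *Smad7*. All 10 genes were found among the 20250 named protein-coding genes of the deposited table, where they are represented by 14 RefSeq transcripts. One library came from Ebf1 -/- pre-pro-B cells, started from fetal liver of female origin and kept in Il-7 (5 ng/mL), Scf (10 ng/mL) and Flt3l (10 ng/mL). The other came from Rag2 -/- pro-B cells, started from bone marrow of adult male mice and kept in Il-7 (5 ng/mL) alone. Both were on a C57BL/6 background, lacked a gene needed for B cell development and were cultured on OP-9 stromal cells, a mouse bone marrow stromal line. With 1 library per cell type no difference has a replicate check, and cell stage cannot be told apart from genotype, sex, age, tissue of origin or cytokines. Levels are FPKM, fragments per kilobase of transcript after division by library size, as estimated per RefSeq transcript by Cuffdiff. The ranges in parentheses after a level are the limits of its 95% confidence interval. That interval comes from a model fitted to 1 library and does not cover variation between cultures or animals.

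TGF-beta signals through a pair of membrane serine/threonine kinases. The type II receptor (Tgfbr2) binds the ligand and phosphorylates the type I receptor (Tgfbr1), which in turn phosphorylates the receptor-regulated Smads Smad2 and Smad3. Related ligands of the bone morphogenetic protein (BMP) family use their own receptors and phosphorylate Smad1 and Smad5. Either kind of receptor-regulated Smad joins the common Smad, Smad4, and enters the nucleus to act on target genes, while the inhibitory Smads, Smad6 and Smad7, act against the receptors, and *Smad7* is itself a target gene of the pathway. In the B lineage, TGF-beta is known to restrain the proliferation of early progenitors.

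The 2 libraries carried the transcripts that mark their stages. Of 10 B lineage markers, all 10 were higher by 2-fold or more in the pro-B library, and 4 of the 5 progenitor markers (*Kit*, *Flt3*, *Cd34* and *Meis1*) were at least 2-fold lower, while *Gata2* was listed at 0 in both. The B lineage markers summed to 74.5 FPKM and 4057 FPKM, pre-pro-B before pro-B, and the progenitor markers to 990 FPKM and 3.05 FPKM. *Ebf1*, one of the 10 B lineage markers and the gene disrupted in the pre-pro-B cells, supplied 64.0 of the 74.5 FPKM. *Ebf1* was at 64.0 FPKM in the Ebf1 -/- library, below its 273 FPKM in the other, and *Rag2* was at 22.9 FPKM in the Rag2 -/- library, below its 34.5 FPKM in the other. These whole-transcript values do not show whether the deleted parts were transcribed. The libraries were planned at about 90 M single-end reads of 97 bp each. In the pre-pro-B library 10032 genes were at 1 FPKM or above, and in the pro-B library 9348.

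Of the 10 genes, 8 reached 1 FPKM or more, each of them in both libraries, and all 8 had the lower value in the pro-B library. The other two, *Smad1* and *Smad6*, stayed below 1 in both libraries. On a scale of log2(FPKM + 1), 4 of the 8 genes (50.0%) were lower by 2-fold or more in the pro-B library, namely *Smad7*, *Tgfbr1*, *Smad5* and *Smad3*, and none was at least 2-fold higher. Among all 10528 genes with 1 FPKM or more in either library, 19.1% were lower by 2-fold or more in the pro-B library and 12.2% were at least 2-fold higher. The median difference of the 8 genes, pro-B minus pre-pro-B, was -1.09 on this scale, beside -0.14 for all 10528 genes, of which 57.4% had a difference below 0. The confidence intervals of the 2 libraries overlapped for each of the 10 member transcripts with 1 FPKM or more. Intervals that did not overlap were found for 4.38% of 12850 protein-coding transcripts at that level. In such bulk libraries, fewer cells that express a gene and less RNA per cell cannot be told apart.

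**Figure D1:**
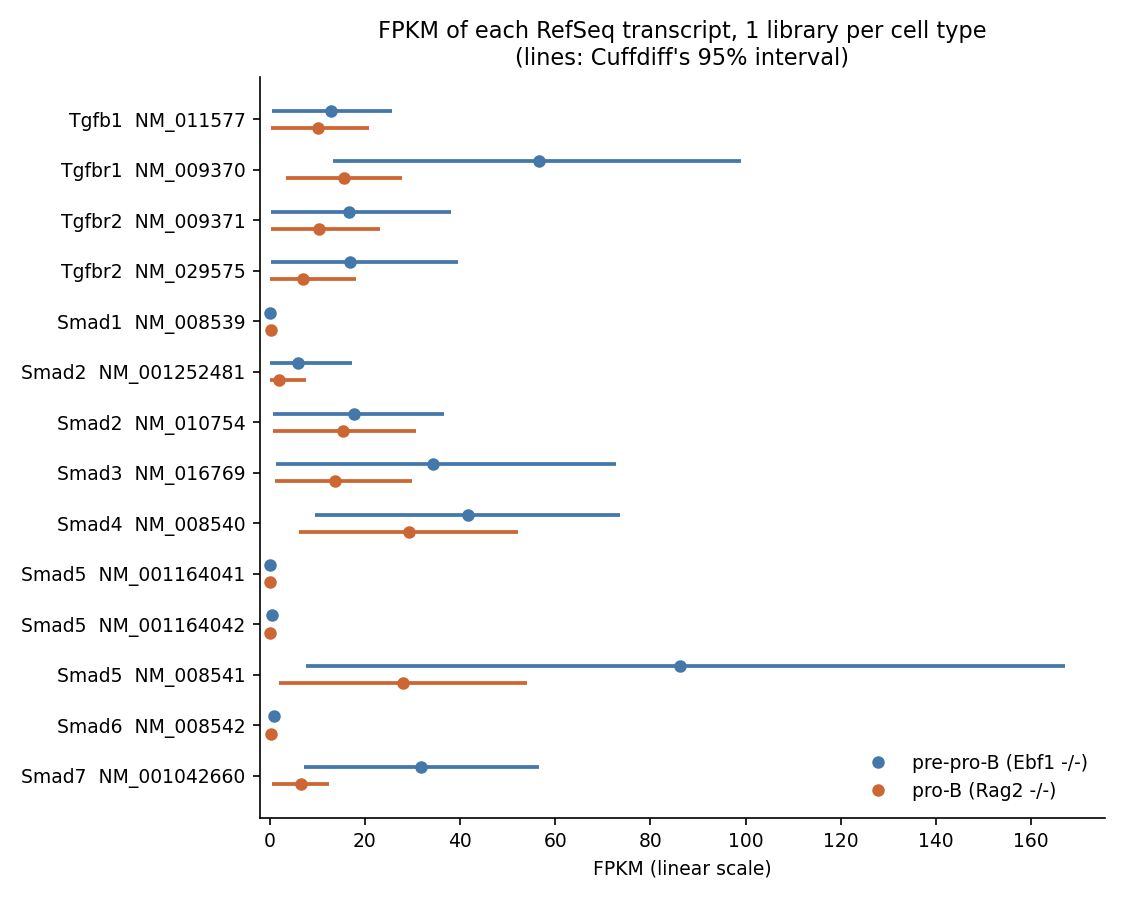
FPKM (linear axis) of the 14 RefSeq transcripts of the TGF-beta receptors, Smads and *Tgfb1* in the pre-pro-B library (blue) and the pro-B library (orange), with points for the estimate and lines for Cuffdiff's 95% interval. The blue points of *Tgfbr1*, *Smad3*, *Smad5* (NM_008541) and *Smad7* lie well to the right of the orange ones, and the intervals overlap in every pair.

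The ligand and the receptors were examined first. *Tgfb1*, which encodes the TGF-beta form that prevails in blood cells (chromosome 7 of mm9, 26472021 to 26490096), was at 12.8 FPKM in the pre-pro-B library (0.434 to 25.7) and at 10.1 FPKM in the pro-B library (0.208 to 20.8). Its estimates thus differed little between the libraries, with a log2 difference of -0.32. The intervals nearly coincided, but they are wide and leave room for a larger difference. *Tgfbr1*, the type I receptor (chromosome 4, 47366094 to 47427803), was at 56.6 FPKM in the pre-pro-B library (13.2 to 99.0) and at 15.7 FPKM in the pro-B library (3.41 to 27.9). The pre-pro-B value was 3.62-fold the pro-B value, a log2(FPKM + 1) difference of -1.79, and the intervals shared the range from 13.2 to 27.9. *Tgfbr1* exceeded 94.2% of all named genes in FPKM in the pre-pro-B library and 78.3% in the pro-B library.

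*Tgfbr2*, the type II receptor (chromosome 9, 115993415 to 116084383), summed over its transcripts to 33.5 FPKM in the pre-pro-B library and to 17.3 FPKM in the pro-B library. The difference of -0.91 on the log2(FPKM + 1) scale lay just short of 2-fold, and it passed 2-fold (-1.03) when each library was rescaled to the same total (TPM). The estimates of the receptors therefore stood in opposite order in the libraries, although the interval of *Tgfbr1* overlapped those of both *Tgfbr2* transcripts within each library. The FPKM of *Tgfbr1* was 1.69 times that of *Tgfbr2* in the pre-pro-B library and 0.903 times that of *Tgfbr2* in the pro-B library, ratios that do not depend on how the libraries are scaled.

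The table holds 2 *Tgfbr2* transcripts, NM_009371 of 4788 bases and NM_029575 of 4713 bases. Their lengths differ by 75 bases, the size of the only exon in which the *Tgfbr2* transcripts of GENCODE vM1 on mm9 differ, and the accessions were matched to the forms by this length. This exon, exon 2 of the longer form, is coding, lies on the minus strand at chr9:116067389-116067463, and adds 25 codons to the extracellular part of the receptor. The sequences are shown because the split between the forms rests on these bases and on the junction that skips them. Both are printed 5′ to 3′ on the minus strand of mm9, with exon 2 in capitals and 30 bases of the neighboring exons 1 and 3 in lower case.
Tgfbr2 with exon 2: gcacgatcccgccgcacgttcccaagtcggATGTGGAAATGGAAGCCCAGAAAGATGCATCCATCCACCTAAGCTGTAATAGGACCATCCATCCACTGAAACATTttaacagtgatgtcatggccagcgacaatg
Tgfbr2 without exon 2: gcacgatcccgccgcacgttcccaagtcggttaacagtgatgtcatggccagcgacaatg

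Exon 2 makes up 1.57% of the longer transcript, so most reads of the gene match both forms and are divided between them by Cuffdiff's model. The longer form was at 16.6 FPKM in the pre-pro-B library (0.197 to 38.0) and at 10.4 FPKM in the pro-B library (0.189 to 23.1). The shorter form was at 16.9 FPKM in the pre-pro-B library (0.195 to 39.5) and at 6.97 FPKM in the pro-B library (0.0409 to 18.2). The longer form thus accounted for 49.6% of the *Tgfbr2* FPKM in the pre-pro-B library and for 59.8% in the pro-B library. Within each library the intervals of the forms overlapped over most of their length, so neither form can be called the more abundant. Taken alone, the shorter form was past 2-fold (log2 difference -1.16) and the longer form was not (-0.63).

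**Figure D2:**
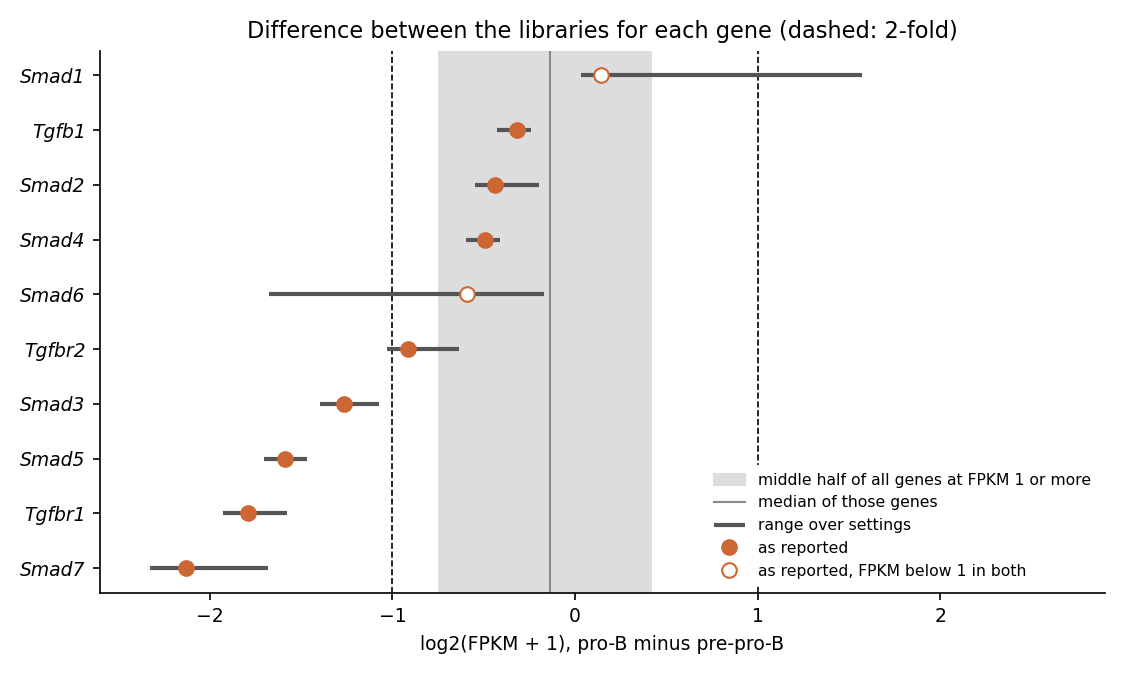
Difference in log2(FPKM + 1), pro-B minus pre-pro-B (horizontal axis), for each of the 10 genes, with points for the reported values (open where the FPKM was below 1 in both libraries) and dark lines for the range over all settings tried. Dashed lines mark 2-fold and the gray band runs between the quartiles of the 10528 genes with 1 FPKM or more, from -0.74 to 0.42. *Smad3*, *Smad5*, *Tgfbr1* and *Smad7* lie beyond 2-fold over their whole range.

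The receptor-regulated Smads of the TGF-beta branch differed from each other. *Smad3* (chromosome 9, 63494574 to 63605801) was at 34.3 FPKM in the pre-pro-B library (1.38 to 72.8) and at 13.7 FPKM in the pro-B library (1.06 to 30.0), a 2.51-fold lower value with a log2 difference of -1.27. *Smad2* (chromosome 18, 76401234 to 76465385) summed to 23.7 FPKM in the pre-pro-B library and to 17.2 FPKM in the pro-B library, a log2 difference of -0.44. *Smad3* was thus the higher of this pair in the pre-pro-B library, at 1.45 times the FPKM of *Smad2*, and the lower in the pro-B library, at 0.794 times, although the intervals of *Smad3* and of the main *Smad2* transcript overlapped within each library.

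*Smad2* is represented by 2 transcripts. NM_010754 was at 17.7 FPKM in the pre-pro-B library (0.723 to 36.5) and at 15.3 FPKM in the pro-B library (0.664 to 30.7). NM_001252481 was at 5.98 FPKM (0 to 17.4) and 1.88 FPKM (0 to 7.54), in the same order. NM_010754 accounted for 74.8% of the gene's FPKM in the pre-pro-B library and for 89.1% in the pro-B library, and both intervals of NM_001252481 began at 0.

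Of the BMP branch, *Smad5* supplied nearly all of the signal. *Smad5* (chromosome 13, 56804371 to 56843738) summed to 86.6 FPKM in the pre-pro-B library and to 28.1 FPKM in the pro-B library, 3.08-fold lower, with a log2 difference of -1.59. It was the most abundant of the 10 genes in the pre-pro-B library, where it exceeded 97.0% of all named genes, and in the pro-B library it lay second to *Smad4*, at 0.963 times its FPKM. The transcript NM_008541 carried 99.5% of the *Smad5* FPKM in the pre-pro-B library (86.2, interval 7.60 to 167) and 99.6% in the pro-B library (28.0, interval 2.00 to 54.0). NM_001164042 had an FPKM of 0.436 in the pre-pro-B library and was listed at 0 in the pro-B library, whereas NM_001164041 was listed at 0 in the pre-pro-B library and had an FPKM of 0.117 in the pro-B library.

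*Smad1* (chromosome 8, 81862294 to 81923417), the other BMP branch Smad of the group, was at 0.0567 FPKM in the pre-pro-B library (0 to 0.195) and at 0.168 FPKM in the pro-B library (0 to 0.545). It was the only one of the 10 genes with the higher value in the pro-B library. At the planned depth these values stand for about 15.6 and 46.1 fragments, both intervals began at 0, and the log2(FPKM + 1) difference was 0.14. *Smad9*, the remaining BMP branch Smad, had an FPKM of 0.00717 in the pre-pro-B library and was listed at 0 in the pro-B library.

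*Smad4*, the common partner of both branches (chromosome 18, 73798663 to 73863434), was at 41.6 FPKM in the pre-pro-B library (9.47 to 73.5) and at 29.2 FPKM in the pro-B library (6.15 to 52.2). Its difference of -0.50 was well within 2-fold, and it was the most abundant of the 10 genes in the pro-B library.

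The inhibitory Smads included the largest difference of the group. *Smad7* (chromosome 18, 75527183 to 75555589) was at 31.9 FPKM in the pre-pro-B library (7.11 to 56.6) and at 6.50 FPKM in the pro-B library (0.507 to 12.5). The pro-B value was 4.90-fold lower, with a log2 difference of -2.13, and the intervals overlapped between 7.11 and 12.5, the narrowest overlap among the 10 member transcripts with 1 FPKM or more. Of the 10528 genes, 6.87% had a lower difference than *Smad7*, against 8.92% for *Tgfbr1*, 10.5% for *Smad5* and 14.1% for *Smad3*. *Smad6* (chromosome 9, 63800953 to 63869866), which acts mainly against BMP signals, was at 0.962 FPKM in the pre-pro-B library (0.0133 to 1.92) and at 0.302 FPKM in the pro-B library (0 to 0.612). Its values differed 3.19-fold without a pseudocount and by -0.59 in log2(FPKM + 1), so whether it passes 2-fold depends on the pseudocount.

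**Figure D3:**
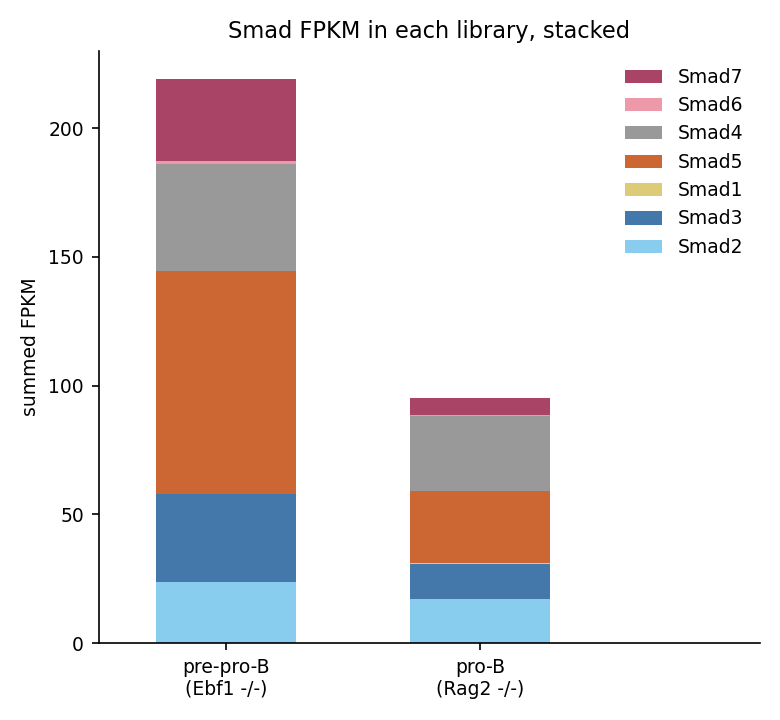
FPKM of the 7 Smad genes stacked for each library (vertical axis, summed FPKM, from 0), pre-pro-B at the left and pro-B at the right. The stack reaches 219 in the pre-pro-B library and 95.2 in the pro-B library, *Smad5* is the tallest block of the first, and *Smad1* and *Smad6* are too small to see clearly.

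In order of level, the pre-pro-B library held *Smad5*, *Tgfbr1*, *Smad4*, *Smad3*, *Tgfbr2*, *Smad7*, *Smad2*, *Tgfb1*, *Smad6* and *Smad1*, from high to low. The pro-B library held *Smad4*, *Smad5*, *Tgfbr2*, *Smad2*, *Tgfbr1*, *Smad3*, *Tgfb1*, *Smad7*, *Smad6* and *Smad1*. The intervals of neighbors in either order, taken for the most abundant transcript of each gene, overlapped, so no neighbors were separated at this precision. *Smad7* stood above *Tgfb1* in the first order and below it in the second.

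Summed over the 7 Smad genes, the FPKM was 219 in the pre-pro-B library and 95.2 in the pro-B library, 2.30-fold lower. The makeup of this sum also differed. *Smad5* and *Smad1* together made up 39.5% of it in the pre-pro-B library and 29.7% in the pro-B library, *Smad2* and *Smad3* 26.5% and 32.5%, *Smad4* 19.0% and 30.7%, and *Smad6* and *Smad7* 15.0% and 7.15%. The BMP branch thus had the higher estimate in the pre-pro-B library, at 1.49 times the FPKM of the TGF-beta branch. In the pro-B library it had the slightly lower one, at 0.915 times. Within each library, however, the interval of the main *Smad5* transcript overlapped those of *Smad3* and of the main *Smad2* transcript. The order of the branches was therefore not separated at this precision. The inhibitory Smads were the group with the largest fold difference between the libraries (4.83-fold lower in the pro-B library), and the common Smad the one with the smallest (1.42-fold).

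Other genes of the pathway were taken from 8 lists, which hold 97 genes, of which 63 had 1 FPKM or more in either library. Of these 63, 14 (22.2%) were at least 2-fold lower and 7 (11.1%) higher by 2-fold or more in the pro-B library, shares close to the 19.1% and 12.2% of all genes. Their median log2 difference was -0.39.

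Among 13 genes for other TGF-beta ligands and for ligand release, 6 passed the FPKM filter and 3 were at least 2-fold lower. *Tgfb3*, encoding another TGF-beta ligand, was at 11.2 FPKM in the pre-pro-B library and at 1.23 FPKM in the pro-B library. *Furin*, the protease that cleaves the TGF-beta precursor, had values of 17.6 and 2.59, in the same order. The intervals of the libraries overlapped for *Tgfb3* and for each *Furin* transcript. *Lrrc32*, which tethers latent TGF-beta at the cell surface and is named with its values known, had 1.43 and 0.0515. *Nrros*, which holds latent TGF-beta on blood cells and was the most abundant gene of this list, had an FPKM of 115 and 60.1, a log2 difference of -0.92. Of 10 co-receptors and receptor regulators, 6 passed the filter and 2 were lower. They were *Zfyve16*, an endosomal Smad anchor (5.29 and 1.98, with overlapping intervals), and the pseudoreceptor gene *Bambi* (1.76 and 0.0595). *Bambi* was named after its values were seen. The most abundant gene of that list was *Strap*, which encodes a receptor-associated protein, at 70.3 and 79.1.

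The BMP and activin receptors held genes that differed in both directions. Of 9 genes, 6 passed the filter, with 3 at least 2-fold higher and 2 at least 2-fold lower. *Bmpr1a*, a type I BMP receptor that phosphorylates Smad1 and Smad5, was at 0.289 FPKM in the pre-pro-B library (0 to 0.577) and at 36.8 FPKM in the pro-B library (8.49 to 65.1). These intervals did not overlap. *Bmpr2*, the type II BMP receptor, went the other way, with 15.9 in the pre-pro-B library (1.19 to 39.6) and 0.713 in the pro-B library (0 to 2.53), and its intervals overlapped. *Acvr2a*, an activin type II receptor that also takes BMP ligands, was at 0.869 FPKM (0 to 3.55) and 5.27 FPKM (0 to 15.6). *Acvr1b*, the activin type I receptor, had 12.5 (0.253 to 25.2) and 5.12 (0.0844 to 11.6). *Acvr1*, a further type I receptor singled out with its values known, was listed at 0 in the pre-pro-B library and summed to 2.13 FPKM in the pro-B library. The pro-B interval of each *Acvr1* transcript began at 0 and overlapped that of the pre-pro-B library. *Smad5*, whose product type I BMP receptors phosphorylate, was at its higher level in the library in which *Bmpr1a* was near 0.

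**Figure D4:**
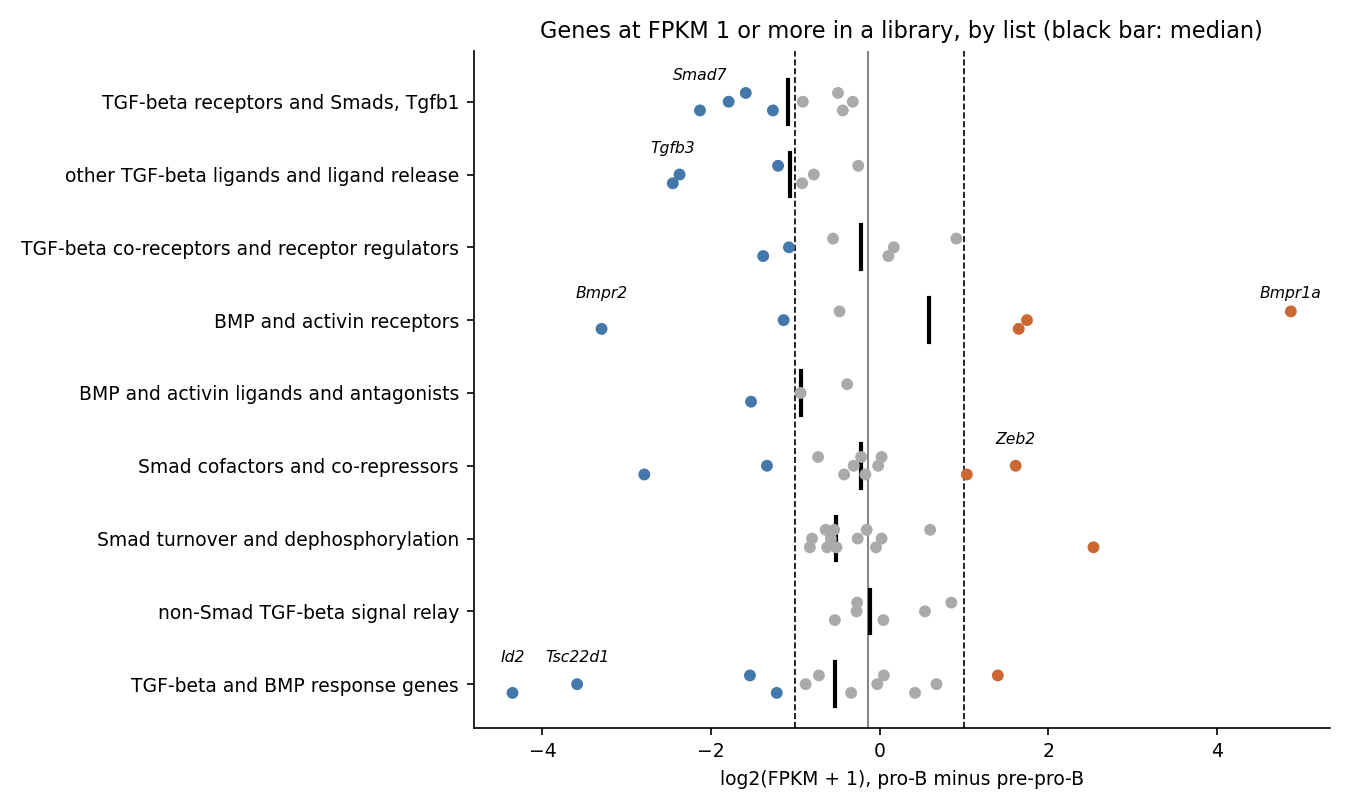
Difference in log2(FPKM + 1), pro-B minus pre-pro-B (horizontal axis), for genes with 1 FPKM or more in either library, by list (rows), with black bars for list medians, dashed lines at 2-fold and a gray line for the median of all genes at -0.14. Genes lower by 2-fold or more in the pro-B library are blue and those at least 2-fold higher are orange; the receptor row spreads from *Bmpr2* at -3.30 to *Bmpr1a* at 4.87.

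Of 16 BMP and activin ligands and antagonists, 3 passed the filter and 1 was at least 2-fold lower, *Bmp7*, named after its values were seen (1.88 in the pre-pro-B library and listed at 0 in the pro-B library). *Twsg1*, which encodes a secreted BMP-binding protein, was the most abundant of them at 48.7 and 24.9. Of 13 Smad cofactors and co-repressors, 11 passed the filter, 2 were lower and 2 were higher. *Runx3*, a transcription factor that works with Smads, was at 32.1 FPKM in the pre-pro-B library and at 3.79 FPKM in the pro-B library. The Smad co-repressor genes *Ski* and *Skil* differed in direction, *Ski* with 5.32 and 1.50 and *Skil* with 11.0 and 23.6. *Zeb2*, a Smad-interacting repressor and the most abundant gene of the list, had 34.7 and 108. For each of these genes the intervals of the libraries overlapped.

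Of 14 genes for Smad turnover and dephosphorylation, 13 passed the filter and 12 of these were within 2-fold. The exception, *Ctdspl*, a phosphatase gene named after its values were seen, was at 0.0332 FPKM in the pre-pro-B library and at 4.98 FPKM in the pro-B library. *Usp15*, a deubiquitinase that acts on the TGF-beta receptor and the most abundant gene of this list, had 54.9 and 38.1. All 6 genes of the Smad-independent relay were within 2-fold, and the most abundant of them, the kinase adaptor gene *Tab2*, had 69.3 and 47.6.

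Of 16 genes known to respond to TGF-beta or BMP signals, 12 passed the filter, 4 were at least 2-fold lower and 1 was higher by 2-fold or more in the pro-B library. *Id2*, an inhibitor of E proteins, was at 182 FPKM in the pre-pro-B library (21.5 to 345) and at 7.95 FPKM in the pro-B library (0.0311 to 19.4), and these intervals did not overlap. *Tsc22d1*, first described as a TGF-beta-stimulated clone and the most abundant gene of the list, had 241 and 19.2, with overlapping intervals. *Myc*, which TGF-beta represses in many cells, had 19.0 and 5.88, also with overlapping intervals. *Gadd45b*, named after its values were seen, had 4.60 and 1.40. *Id3*, another inhibitor of E proteins, was higher in the pro-B library, with 3.24 and 10.2 and overlapping intervals. Many other signals act on these genes, and the values do not show which one did. *Ccn2*, a TGF-beta response gene of connective tissue cells, was listed at 0 in both libraries.

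Markers of other cell types also differed between the libraries. Of the stromal markers, which could come from OP-9 cells, 8 of 12 reached 1 FPKM or more in either library, and their FPKM summed to 24.0 in the pre-pro-B library and to 25.7 in the pro-B library. Of these 8, 4 were at least 2-fold higher in the pro-B library (*Col1a2*, *Col6a1*, *Fn1* and *Cxcl12*), 1 was at least 2-fold lower (*Pdgfrb*), and the median log2 difference was 1.00. *Pdgfrb* alone was at 15.9 and 0.377, and without it the other 11 stromal markers summed to 8.09 in the pre-pro-B library and to 25.4 in the pro-B library. *Dcn* was listed at 0 in both libraries, and *Lum* in the pre-pro-B library. Myeloid markers summed to 291 in the pre-pro-B library and to 9.51 in the pro-B library, with *Fcgr3* alone at 218 and 2.88. Of their 8 measured genes, 5 reached 1 FPKM or more in either library, and all 5 were at least 2-fold lower in the pro-B library. Besides *Fcgr3* they were *Mpo* (35.7 and 0.122), *Itgam* (19.7 and 6.397), *Adgre1* (11.7 and 0.111) and *Lyz2* (5.39 and listed at 0). *Elane* was listed at 0 in both libraries. *Csf1r* and *Csf3r* were listed at 0 in the pro-B library, but were below 1 FPKM in the pre-pro-B library too. T lineage markers summed to 119 and 3.29. Most of the 119 came from *Cd3g* (36.85 and 0.035), *Lck* (37.97 and 2.996) and *Tcf7* (38.91 and 0.118). *Cd3d*, *Cd4*, *Cd8a* and *Bcl11b* were listed at 0 in the pro-B library. They were already low in the pre-pro-B library, at 0.533, 1.15, 0.322 and 0.268 FPKM. Of the 9 T lineage markers, 5 reached 1 FPKM or more in either library, and all 5 were at least 2-fold lower in the pro-B library. Erythroid and megakaryocyte markers summed to 1.43 and 0.293, with *Hba-a1*, *Pf4* and *Ppbp* among those listed at 0 in both. The part of such cells or transcripts in the differences of the receptors and Smads was not tested.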

How the data were processed

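RNA depleted of rRNA and of small RNAs was sequenced in 2 libraries, 1 for each cell type. The authors trimmed the reads, aligned them to mm9 with TopHat (1.5 in the submitters' processing notes; the study's parameter sheet names another version) using strand-specific settings, and estimated the deposited FPKM and their 95% confidence limits with Cuffdiff 2.1.1, without scaling between libraries. Reads matching several transcripts or places were divided among them, so values of separate transcripts are less certain than sums. The second deposited table holds the authors' log2 fold changes, p-values and q-values and 2 columns of FPKM, and was not used.

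Of 26580 protein-coding accessions, 26173 were given gene names through RefSeq annotation of GRCm38, from which no coordinates were taken, and FPKM were summed per gene. Gene coordinates are those of GENCODE vM1 on mm9. Differences were taken as log2(FPKM + 1), which understates changes of low genes, with 2-fold as the limit and an FPKM of at least 1 in either library as the filter. Without replicates no test was made. Members and lists were chosen with earlier results of these data known. From each pathway list, genes past 2-fold with an FPKM of at least 5 and the most abundant gene were named, besides those stated. The rule does not cover the cell type marker lists, which are given as whole lists, and the markers named from them were picked with their values known. No genes were sought for a pattern like the members', since 2 libraries give each gene a single difference. Actual read totals were not used, and fragment numbers rest on the planned 90 M reads. The code of the fold rule was checked on simulated data with known fold changes set away from 2-fold. That check covers the arithmetic only and not the variation between libraries. Python 3.11.15, numpy 2.4.6, pandas 2.3.3 and matplotlib 3.10.9 were used.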

Additional observations from a re-analysis of the deposited data

How the results depend on the processing

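The count of 4 genes lower by 2-fold or more in the pro-B library, *Tgfbr1*, *Smad3*, *Smad5* and *Smad7*, was the same in 8 of 9 alternatives. Some of these could not change it. The alternatives in the FPKM filter, and the one limited to transcripts that Cuffdiff marked as OK, left every member's difference as it was. With the most abundant transcript, genes with a single transcript kept their difference. With TPM the count was 6 of 9 genes, since *Tgfbr2* (-1.03) and *Smad6* (-1.06) were added. The share over all genes rose as well, to 23.8% of 11432 genes, against 19.1% of 10528 as reported. TPM moved the median difference of all genes from -0.14 to -0.25. The rescaling itself shifted every log2 ratio by -0.09, which the values of *Tgfbr2* and *Smad6* include. Values are also larger as TPM, so the same pseudocount weighs less on low genes. *Smad6*, which passed the filter only as TPM, moved from -0.59 by more than the shift. Over the settings tried, differences ranged from -1.93 to -1.58 for *Tgfbr1*, from -1.40 to -1.07 for *Smad3*, from -1.70 to -1.47 for *Smad5* and from -2.32 to -1.68 for *Smad7*. *Smad6* passed 2-fold with a pseudocount of 0.1 (-1.40) and without one (-1.67), and *Smad1* without one (1.57), a setting chosen after seeing the data. Of 70 recomputed differences of single genes, 65 stayed on their side of 2-fold and 0 reversed. Some of the 65 repeat the reported value by construction, and a pseudocount cannot change the sign of a difference. With a pseudocount of 5, the other pathway genes past 2-fold numbered 7 lower and 2 higher of 63, by construction of the larger pseudocount, against 14 and 7. The shares over all genes also fell at that setting, to 9.46% lower and 7.46% higher. No member transcript had intervals that did not overlap under any filter. No paired analysis was possible because each cell type has 1 library. The lack of replicates and the wide intervals limit these results, and the effect of depth was not measured.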
